A study of Homo sapiens with 18 samples.

Results

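The genes described here are the CDK inhibitors CDKN1A, CDKN1B, CDKN1C and CDKN2C, the G1 cyclins CCND1, CCND2, CCND3, CCNE1 and CCNE2, and RB1. They were chosen by name, and every array probe set paired with exactly 1 of these symbols was taken. This gave 21 probe sets of 54675 on the array, for 9 of the 10 genes, among 19775 genes named in this way. CDKN2C was paired with no probe set in the gene table used and was not analysed here. Probe sets were tested where 3 or more of the 18 arrays read over 4 on the log2 scale, which held for 13 of the 21 and for 21233 in the whole table. The other 8 read under 4 on all 18 arrays: 2 of CDKN1C, 3 of CCND2 and 1 each of CCND3, CCNE1 and RB1.

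RNA of 2 human prostate cancer cell lines, 22Rv1 and LNCaP, was measured on 1-colour expression arrays in 6 groups of 3 arrays each. ONECUT2, a transcription factor of the one-cut homeobox family, was overexpressed from a stably integrated lentiviral cDNA vector in LNCaP and in 22Rv1, and each was set against control cells of its line, whose treatment is labelled vehicle. In 22Rv1, arrays labelled ONECUT2 shRNA (a short hairpin RNA meant to silence the gene) were set against arrays labelled scramble, a hairpin without a human target. Transduced cells were selected with puromycin as stable lines, and the sources used here do not say whether the controls carried an empty vector. Nothing in the labels ties the 3 arrays of a group to 3 separate cultures. The p-values thus speak only of array-to-array spread, pooled over the 6 groups for each probe set, part of which may be technical.

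In the G1 phase, D-type cyclins activate the kinases CDK4 and CDK6, and E-type cyclins activate CDK2. These kinases phosphorylate the retinoblastoma protein, which then releases the E2F factors that switch on genes for DNA synthesis. The Cip/Kip inhibitors (CDKN1A, CDKN1B, CDKN1C) bind cyclin-kinase complexes, and INK4 inhibitors such as CDKN2C bind CDK4 and CDK6. Growth factor signals, hormones and DNA damage are known to act on the levels of these genes.

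Under ONECUT2 overexpression, transcripts of the inhibitors CDKN1A and CDKN1C rose and that of the cyclin CCNE2 fell in both lines. CCND1 rose in LNCaP at 1 of its 2 probe sets and fell in 22Rv1 at both. CDKN1B had no called change in either line. CCND2 rose in LNCaP, with 2 of the 3 overexpression arrays over 4 and all controls under it. In 22Rv1 the CCND2 values lay near or under 4 in both groups, and CCND3 rose in 22Rv1. RB1 and CCNE1 fell in LNCaP, with values in 22Rv1 within the spread of the controls. A change was called at an adjusted p under 0.05 in limma's moderated test over all probe sets tested, and a fold is 2 to the power of the log2 difference.

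In LNCaP overexpression 10 of the 13 probe sets were called, 6 higher and 4 lower, where 59.0% of all probe sets tested were called. In 22Rv1 overexpression 10 of 13 were called, 6 higher and 4 lower, against 58.1% of all probe sets. Between arrays labelled ONECUT2 shRNA and scramble 9 of 13 were called, 4 higher and 5 lower, with 27.0% of all probe sets called. The overexpression effect in LNCaP minus that in 22Rv1 was called for 8 of 13, 7 higher and 1 lower, with 42.1% of all probe sets called. With most of the whole table called, the counts in overexpression are a description of these genes, and nothing particular to them is read from the counts. CCND2 and the CDKN1C probe sets 219534_x_at and 213182_x_at passed the filter through the groups in which they were high, so the counts over tested probe sets hold members that had to differ. The median log2 change over the 13 was 0.01 in LNCaP overexpression, 0.01 in 22Rv1 overexpression and -0.12 for shRNA against scramble. Over all probe sets tested it was 0.01, 0.02 and -0.04 in the same order. For the difference between lines it was 1.06 over the 13, which count CDKN1C 3 times and CCND1 and CCNE2 2 times each, and -0.09 over all. With 1 probe set for each of the 9 genes that median was -0.16, of the opposite sign, with 4 genes called higher and 1 lower, and the median for shRNA against scramble was -0.32.

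**Figure D1:**
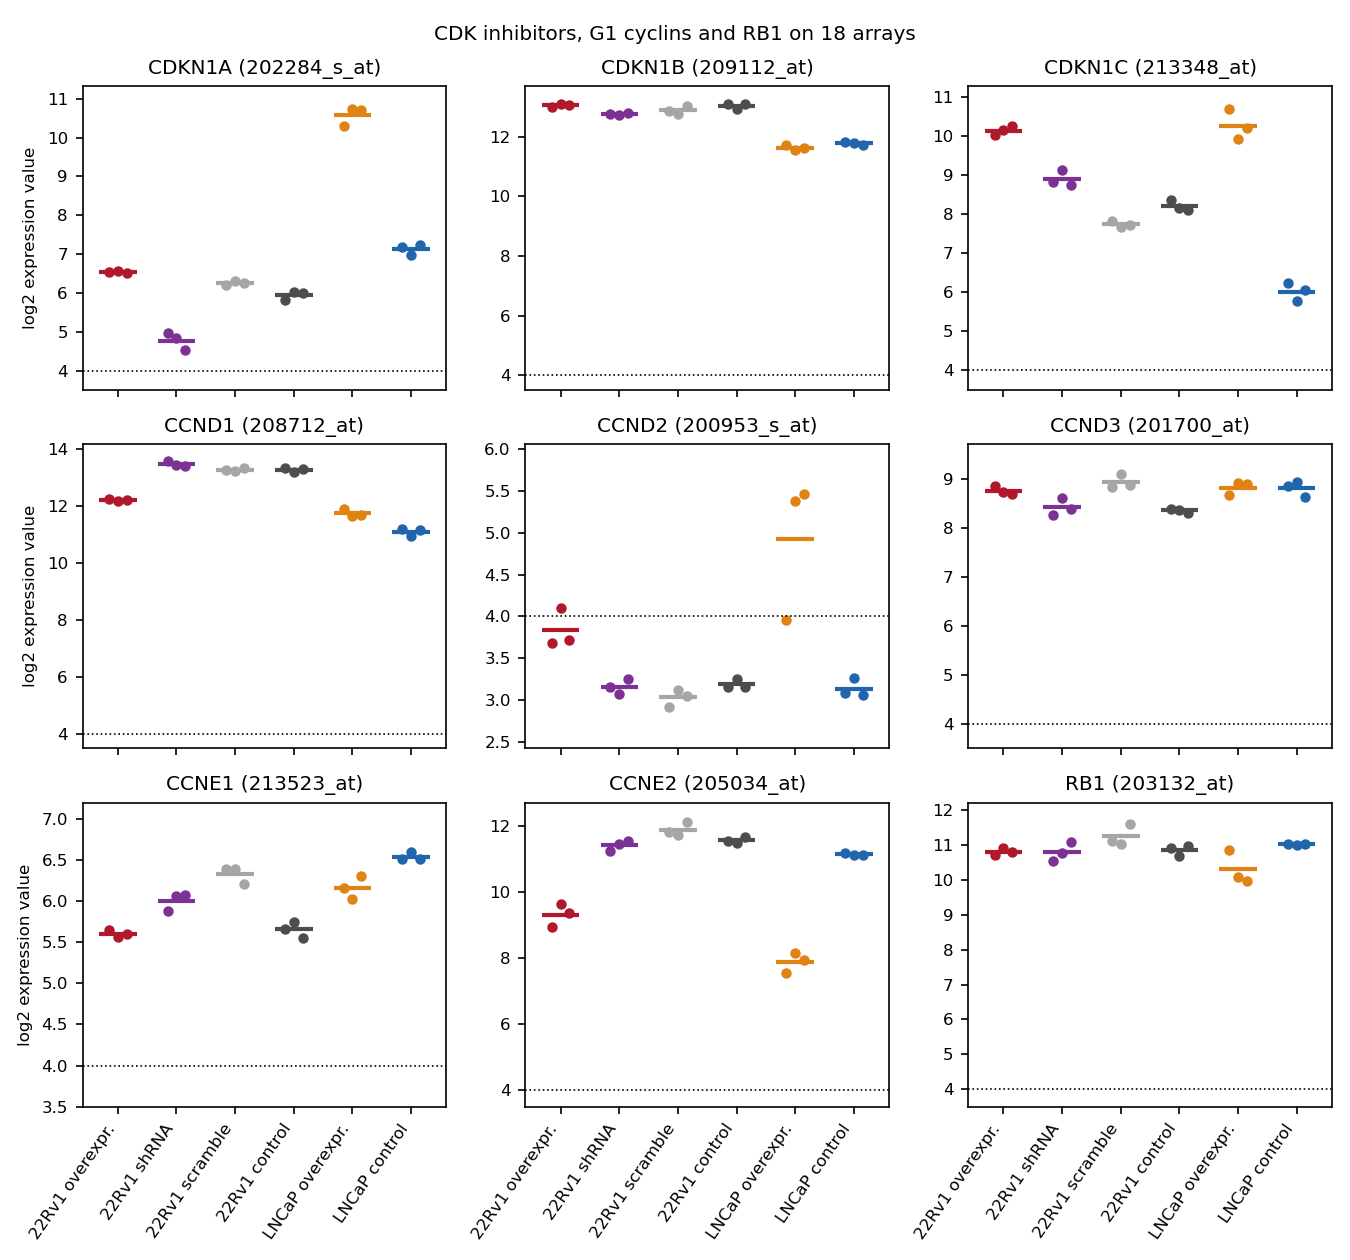
Log2 expression value (vertical axis, a scale of its own in each panel) of the probe set with the highest mean for each of 9 genes on the 18 arrays, with 1 point per array and a line at each group mean; overexpr. stands for ONECUT2 overexpression, and the dotted line is the log2 value of 4 used as filter. CDKN1A and CDKN1C stand highest in LNCaP overexpression, CCNE2 stands lowest there, and CCND2 lies near or under 4 outside that group.

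The label check on ONECUT2 itself came out differently for the vector and the hairpin. The probe set 207676_at read 5.23, 7.17 and 7.43 in LNCaP overexpression against 2.99, 2.74 and 3.04 in LNCaP control, and 4.78, 4.14 and 4.21 in 22Rv1 overexpression against 3.05, 3.44 and 3.25 in 22Rv1 control. It was higher in both, with adjusted p-values of 3.98e-07 and 0.0171. It read over 4 in the overexpression groups only and passed the filter through them, so these p-values are no separate support. At 239911_at the difference was 0.66 in LNCaP (adjusted p = 0.00175) and 0.54 in 22Rv1 (adjusted p = 0.00773). At 230271_at it was 0.53 (adjusted p = 0.00506) and 1.16 (adjusted p = 3.64e-06) in the same order. By contrast, 233446_at was lower in 22Rv1 overexpression (log2 -0.97, adjusted p = 0.00227) and not called in LNCaP (0.23, adjusted p = 0.411). Which part of the transcript each probe set reads was not analysed here. The probe set 239911_at read 8.46, 9.00 and 9.12 on arrays labelled ONECUT2 shRNA against 6.63, 6.71 and 7.08 on arrays labelled scramble, a log2 difference of 2.05 (SE 0.16, adjusted p = 1.07e-07). ONECUT2 was also higher under the ONECUT2 shRNA label at 230271_at (log2 1.97, adjusted p = 7.15e-08) and 233446_at (log2 1.74, adjusted p = 5.44e-05). The probe set 207676_at read under 4 in both groups. ONECUT2 was therefore not lower on the arrays labelled as its knockdown, and every direction given for these arrays follows their labels only. At 239911_at the arrays labelled scramble were lower than 22Rv1 control by 1.41 on the log2 scale (adjusted p = 9.61e-06). They were also lower at 230271_at (log2 -0.60, adjusted p = 0.00682) and 233446_at (log2 -1.72, adjusted p = 7.07e-05). Under the ONECUT2 shRNA label the arrays were higher than 22Rv1 control at 239911_at (log2 0.65, adjusted p = 0.0240) and 230271_at (log2 1.37, adjusted p = 5.21e-05). At 233446_at that difference was 0.01 and not called (adjusted p = 0.988).

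The arrays had similar medians, 3.26 to 3.34, and 38.3% to 40.0% of probe sets over 4. Replicates of a group correlated at 0.996 or more over all probe sets, except in LNCaP overexpression, where the lowest value was 0.975. As the spread is pooled over the 6 groups, the p-values of LNCaP overexpression do not carry its own, wider spread alone. Replicate 1 of LNCaP overexpression stood nearer to the LNCaP controls (mean r 0.969) than replicates 2 and 3 (0.948 and 0.953). For ONECUT2 it read lowest of the 3 at 207676_at and 239911_at, but highest at 230271_at and 233446_at. Where leaving it out changed a call on one of the 9 genes or moved a called difference between lines, the value without it is given beside the result. Without it 11 of the 13 probe sets were called in LNCaP overexpression, and 14620 probe sets in all, against 12538 with it. For the difference between lines 9 of the 13 were called, and 12240 probe sets in all, against 8936 with it. For beta-actin, whose control probe sets at the 3' and 5' ends report on RNA or labelling length, the 3' value exceeded the 5' value by 8.06 ± 0.70 in 22Rv1 overexpression and 4.11 ± 0.41 in 22Rv1 control (log2, SD, n = 3 each). The LNCaP overexpression arrays gave 2.85 ± 0.56 and the LNCaP controls 2.94 ± 0.25. The same measure for GAPDH was -0.43 ± 0.13 in 22Rv1 overexpression and -0.70 ± 0.086 in 22Rv1 control, a much smaller gap, and -0.68 in both LNCaP groups. The part of the beta-actin gap in the 22Rv1 overexpression results was not tested. Of 9 luminal prostate markers 7 had a named probe set, and all 7 exceeded 4 on some array, TMPRSS2 on 6 arrays only. The mean over these 7 lay between 7.65 and 8.92 in LNCaP overexpression and 10.94 and 10.98 in LNCaP control, and between 7.45 and 7.67 in 22Rv1 overexpression and 8.77 and 8.83 in 22Rv1 control. Of the 7, 4 were called lower and 1 higher in each line, the higher one being KRT8 in LNCaP (log2 1.53, adjusted p = 2.21e-05) and KRT18 in 22Rv1 (log2 0.73, adjusted p = 3.89e-06), while HOXB13 had no called change in either. Of 12 leukocyte, endothelial and fibroblast markers 11 were named and 4 exceeded 4 on any array. These were COL1A1 (18 arrays), LUM (8), VWF (2) and DCN (1). PTPRC, CD3E, CD14, PECAM1, CDH5, COL1A2, a second collagen gene, and DES read under 4 on all 18. The mean over the 11 lay between 3.49 and 3.68 in LNCaP overexpression and 3.33 and 3.37 in LNCaP control. The other way round, it lay between 3.31 and 3.38 in 22Rv1 overexpression and 3.59 and 3.65 in 22Rv1 control. COL1A1, a collagen gene of fibroblasts, exceeded 4 on all 18 arrays and averaged 11.44 in LNCaP overexpression against 7.81 in LNCaP control (adjusted p = 1.22e-08), and 9.76 in 22Rv1 overexpression against 7.64 in 22Rv1 control (adjusted p = 6.53e-06). LUM, another matrix gene, averaged 2.41 in 22Rv1 overexpression against 5.65 in 22Rv1 control (adjusted p = 1.55e-10). The part of either marker list in the results was not tested. In these bulk samples fewer cells that express a gene and less RNA of it per cell cannot be told apart.

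CDKN1A encodes p21, which binds and inhibits CDK2 complexes. Its probe set 202284_s_at read 10.30, 10.73 and 10.72 in LNCaP overexpression, against 7.19, 6.98 and 7.24 in LNCaP control. The 22Rv1 overexpression arrays read 6.53, 6.57 and 6.52, against 5.83, 6.03 and 5.99 in 22Rv1 control. All overexpression arrays lay above all controls of their line, by a wide gap in LNCaP and a narrow one in 22Rv1. The rise was 10.9-fold in LNCaP (log2 3.44, SE 0.14, adjusted p = 3.66e-12) and 1.51-fold in 22Rv1 (log2 0.59, SE 0.14, adjusted p = 0.00162). The effect in LNCaP exceeded that in 22Rv1 by 2.85 on the log2 scale (SE 0.20, adjusted p = 1.9e-08), and by 2.99 without LNCaP overexpression replicate 1.

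Arrays labelled ONECUT2 shRNA had the lowest CDKN1A values of the series, 4.96, 4.83 and 4.53, against 6.21, 6.31 and 6.25 on arrays labelled scramble. The groups did not overlap, and the level was 2.80-fold lower under the ONECUT2 shRNA label (log2 -1.48, SE 0.14, adjusted p = 1.12e-06), where ONECUT2 itself read higher. It was also lower than in 22Rv1 control, by 1.18 on the log2 scale (adjusted p = 0.000142). Ordered by mean, the 6 groups ran LNCaP overexpression, LNCaP control, 22Rv1 overexpression, scramble, 22Rv1 control and ONECUT2 shRNA, and no neighbours in that order had overlapping arrays.

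The window before the CDKN1A start is printed because CDKN1A had one of the largest changes among these genes, and that of CCNE1 because it is the E-type cyclin with a window in the table. Both windows are the 250 bases before a RefSeq transcript start on GRCh38.p14, 5′ to 3′ on the plus strand, at chr6:36678464-36678713 for CDKN1A and chr19:29811741-29811990 for CCNE1. Capitals mark GC boxes, the letters GGGCGG or CCGCCC, with overlapping matches joined.
CDKN1A: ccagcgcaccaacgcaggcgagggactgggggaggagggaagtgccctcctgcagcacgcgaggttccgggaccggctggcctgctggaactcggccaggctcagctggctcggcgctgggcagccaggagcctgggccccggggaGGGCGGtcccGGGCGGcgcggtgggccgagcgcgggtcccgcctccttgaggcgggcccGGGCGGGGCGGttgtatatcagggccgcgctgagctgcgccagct
CCNE1: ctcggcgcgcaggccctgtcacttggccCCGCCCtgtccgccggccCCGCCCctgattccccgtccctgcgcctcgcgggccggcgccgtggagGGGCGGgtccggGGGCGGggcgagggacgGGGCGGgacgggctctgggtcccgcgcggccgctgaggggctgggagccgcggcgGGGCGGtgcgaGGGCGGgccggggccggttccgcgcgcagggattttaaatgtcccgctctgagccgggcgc
The CDKN1A window holds 4 GC boxes and the CCNE1 window 7, and 42.64% of the 35116 windows in the table hold at least 1. The letters TATAAA (in 10.72% of windows), TTTCCCGC (1.39%) and TTTGGCGC (0.5496%), each read on both strands, occur in neither. Of the 10 genes, 6 had a window in the table. The letters are a description of these windows and were not tied to any array value.

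CDKN1C encodes p57, a Cip/Kip inhibitor from an imprinted locus. Its probe set 213348_at read 10.68, 9.92 and 10.21 in LNCaP overexpression, against 6.23, 5.77 and 6.05 in LNCaP control. In 22Rv1 overexpression it read 10.02, 10.16 and 10.24, against 8.35, 8.15 and 8.12 in 22Rv1 control. The lines differed at baseline and met at a like level under overexpression, where their arrays overlapped. The rise was 19.0-fold in LNCaP (log2 4.25, SE 0.17, adjusted p = 3.47e-12) and 3.82-fold in 22Rv1 (log2 1.93, SE 0.17, adjusted p = 7.6e-08). The difference between the effects was 2.32 (SE 0.24, adjusted p = 1.7e-06), and 2.11 without LNCaP overexpression replicate 1. The control of LNCaP was 4.57-fold below that of 22Rv1 (log2 -2.19, adjusted p = 9.81e-09).

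The 2 dimmer CDKN1C probe sets that were tested moved the same way. They passed the filter through the groups in which they were high, so they are no separate support for the rise. At 219534_x_at the arrays read 5.85, 5.51 and 5.56 in LNCaP overexpression against 2.93, 2.57 and 2.14 in LNCaP control, and 5.43, 5.33 and 5.13 in 22Rv1 overexpression against 3.81, 4.03 and 3.99 in 22Rv1 control. At 213182_x_at they read 5.51, 4.47 and 4.92 in LNCaP overexpression against 2.99, 2.97 and 2.67 in LNCaP control, and 4.93, 4.30 and 4.70 in 22Rv1 overexpression against 3.41, 3.75 and 3.70 in 22Rv1 control. Where all controls read under 4 the rise is a lower bound, taken from 4. It was at least 3.12-fold in LNCaP at 219534_x_at (adjusted p = 1.83e-10), at least 1.95-fold in LNCaP at 213182_x_at (adjusted p = 3.82e-07) and at least 1.56-fold in 22Rv1 at 213182_x_at (adjusted p = 0.000599). At 219534_x_at in 22Rv1 the rise was 2.56-fold (log2 1.35, SE 0.17, adjusted p = 3.96e-06). The remaining 2 CDKN1C probe sets stayed under 4 on every array.

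Unlike CDKN1A, CDKN1C was higher on arrays labelled ONECUT2 shRNA than on arrays labelled scramble. Probe set 213348_at read 8.82, 9.14 and 8.76 under the ONECUT2 shRNA label and 7.83, 7.67 and 7.73 under the scramble label, which did not overlap. The difference was 2.23-fold (log2 1.16, SE 0.17, adjusted p = 0.000114). It was called at the other 2 tested probe sets too, at least 1.57-fold at 219534_x_at (adjusted p = 0.000232) and at least 1.08-fold at 213182_x_at (adjusted p = 0.00415). As above, these 2 passed the filter through groups in which they were high, the ONECUT2 shRNA group among them. Against 22Rv1 control, 213348_at was 1.62-fold higher under the ONECUT2 shRNA label (adjusted p = 0.0255), a call lost without 22Rv1 control replicate 2 or 3 or ONECUT2 shRNA replicate 2. At 219534_x_at that comparison gave a log2 difference of 0.71 (adjusted p = 0.0230), a call lost without any single array of these groups except ONECUT2 shRNA replicate 3.

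CDKN1B encodes p27, an inhibitor whose amount is set in large part by protein turnover. Its probe set 209112_at read 11.71, 11.54 and 11.62 in LNCaP overexpression, against 11.83, 11.78 and 11.73 in LNCaP control. The 22Rv1 overexpression arrays read 13.00, 13.10 and 13.06, against 13.09, 12.94 and 13.10 in 22Rv1 control. The LNCaP groups did not overlap but the difference was not called (log2 -0.15, interval -0.31 to 0.00, adjusted p = 0.0807), and without LNCaP overexpression replicate 1 it was called (-0.20, adjusted p = 0.0230). The 22Rv1 groups overlapped, with a difference of 0.01 (interval -0.14 to 0.16, adjusted p = 0.916). Intervals here are 95% intervals of the model.

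The larger contrast in CDKN1B lay between the lines. LNCaP control was 2.40-fold lower than 22Rv1 control (log2 -1.27, SE 0.07, adjusted p = 1.98e-10), with no overlap. Arrays labelled ONECUT2 shRNA read 12.76, 12.73 and 12.79, against 12.86, 12.76 and 13.03 on arrays labelled scramble, groups that overlapped (log2 -0.12, interval -0.28 to 0.03, adjusted p = 0.229). Against 22Rv1 control the ONECUT2 shRNA arrays were lower by 0.28 on the log2 scale (adjusted p = 0.0318), a call lost without any single array of these groups except 22Rv1 control replicate 2. The scramble arrays were not called against 22Rv1 control (log2 -0.16, adjusted p = 0.138), but were without scramble replicate 3 (-0.23, adjusted p = 0.0337).

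**Figure D2:**
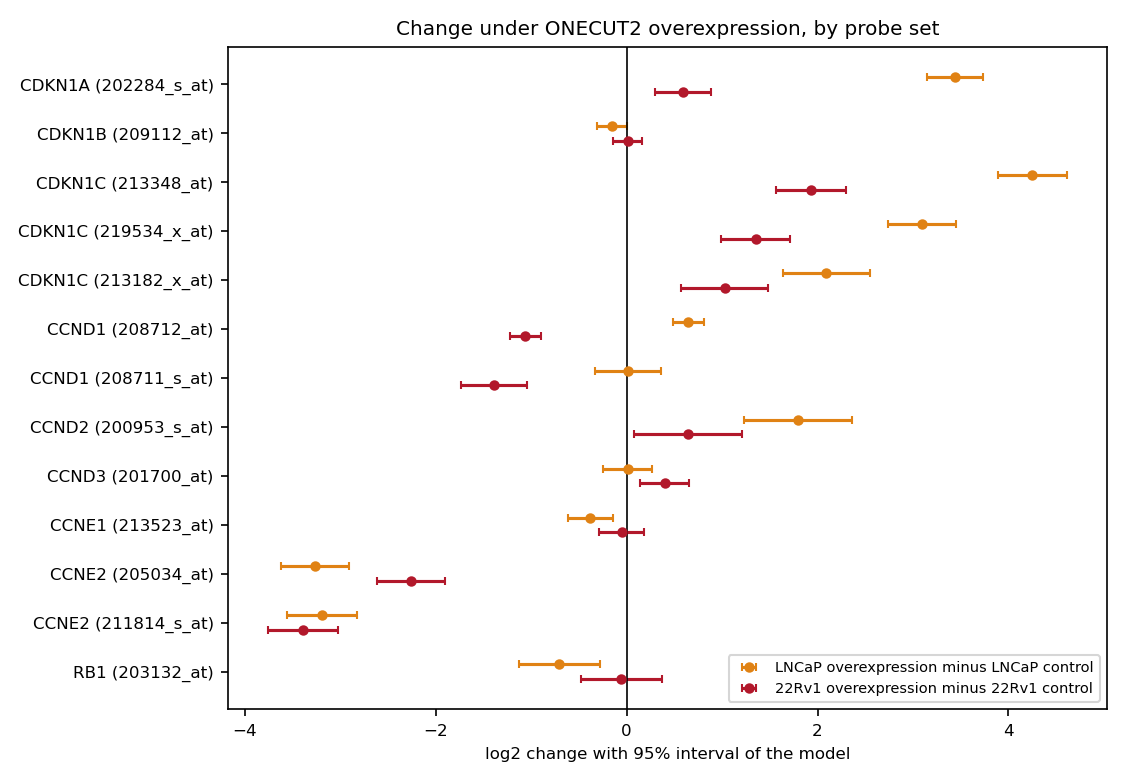
Log2 change of the 13 tested probe sets (rows) under ONECUT2 overexpression in LNCaP and in 22Rv1, each against its own control, as points with 95% intervals of the model; fitted values are drawn also where a group reads under 4 and the text gives a bound. CDKN1A and CDKN1C lie right of 0 and CCNE2 left of 0 in both lines, while CCND1 at 208712_at lies at 0.65 in LNCaP and -1.06 in 22Rv1.

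CCND1 encodes cyclin D1, the regulatory subunit of CDK4 and CDK6 that growth signals induce. Its probe set 208712_at read 11.87, 11.66 and 11.69 in LNCaP overexpression, against 11.19, 10.95 and 11.14 in LNCaP control. In 22Rv1 overexpression it read 12.25, 12.15 and 12.21, against 13.33, 13.17 and 13.30 in 22Rv1 control. The LNCaP overexpression arrays all lay above their controls and the 22Rv1 overexpression arrays all below theirs. CCND1 thus rose 1.56-fold in LNCaP (log2 0.65, SE 0.08, adjusted p = 1.97e-06) and fell 2.08-fold in 22Rv1 (log2 -1.06, SE 0.08, adjusted p = 6.75e-09). The effects differed by 1.71 on the log2 scale (SE 0.11, adjusted p = 6.62e-09), and by 1.64 without LNCaP overexpression replicate 1.

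The other CCND1 probe set, 208711_s_at, showed the fall in 22Rv1 but no called change in LNCaP. It read 8.12, 8.07 and 8.19 in LNCaP overexpression against 7.9998, 8.1889 and 8.1540 in LNCaP control, which overlapped (log2 0.01, interval -0.33 to 0.36, adjusted p = 0.949). The 22Rv1 overexpression arrays read 9.58, 9.48 and 9.03 against 10.51, 10.70 and 11.03 in 22Rv1 control, a 2.62-fold fall (log2 -1.39, SE 0.16, adjusted p = 1.82e-06). The effects differed between the lines at this probe set too (1.40, SE 0.23, adjusted p = 0.000148). Both probe sets put LNCaP control below 22Rv1 control, 4.51-fold at 208712_at (adjusted p = 3.99e-13) and 6.21-fold at 208711_s_at (adjusted p = 5.16e-10).

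The pair disagreed most on the hairpin arrays. At 208712_at the arrays labelled ONECUT2 shRNA read 13.55, 13.44 and 13.41, against 13.27, 13.22 and 13.31 on arrays labelled scramble, a difference that was not called (log2 0.20, interval 0.04 to 0.36, adjusted p = 0.0626). At 208711_s_at they read 10.14, 9.71 and 9.60, against 9.29, 9.17 and 9.27, which was called (log2 0.58, SE 0.16, adjusted p = 0.0148) but not without ONECUT2 shRNA replicate 1 (0.41, adjusted p = 0.0851). Against 22Rv1 control, the scramble arrays were 2.84-fold lower at 208711_s_at (log2 -1.51, SE 0.16, adjusted p = 6.87e-06), while at 208712_at the difference was 0.00 (interval -0.16 to 0.16, adjusted p = 0.995). The ONECUT2 shRNA arrays were lower than 22Rv1 control too at 208711_s_at (log2 -0.93, adjusted p = 0.00319), and not called at 208712_at (log2 0.20, adjusted p = 0.149). The 2 probe sets of CCND1 therefore gave different answers for the same arrays, and the cause was not tested.

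CCND2 encodes cyclin D2, and of its 4 probe sets only 200953_s_at exceeded 4 on 3 arrays, the number the filter required. It read 3.96, 5.38 and 5.46 in LNCaP overexpression, against 3.09, 3.26 and 3.06 in LNCaP control. In 22Rv1 overexpression it read 3.68, 4.10 and 3.72, against 3.15, 3.25 and 3.16 in 22Rv1 control. Only replicates 2 and 3 of LNCaP overexpression stood clearly over 4. The rise in LNCaP was at least 1.91-fold (adjusted p = 2.48e-05), and its fitted log2 value of 1.80 became 2.28 without replicate 1. Without replicate 2 or 3 of LNCaP overexpression the probe set no longer passed the filter and was not tested. As it was tested through groups in which it was high, the p-value is no separate support for the rise. In 22Rv1 both groups lay near or under 4, and the fitted 0.64 (interval 0.08 to 1.21, adjusted p = 0.0491) was not called in any of the 5 fits without 1 array in which the probe set was still tested, which leaves out the fit without 22Rv1 overexpression replicate 2. The fitted effects differed between the lines by 1.15 (SE 0.38, adjusted p = 0.0219), a value that rests on controls under 4 and has no bound. It was 1.64 without LNCaP overexpression replicate 1, and the call was lost without 22Rv1 overexpression replicate 1 (1.08, adjusted p = 0.0517) and when only the groups compared were fitted (adjusted p = 0.0596). On the hairpin arrays CCND2 stayed under 4, at 3.07 to 3.25 under the ONECUT2 shRNA label and 2.92 to 3.12 under the scramble label.

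CCND3 encodes cyclin D3, and its probe set 201700_at varied little. It read 8.68, 8.92 and 8.90 in LNCaP overexpression against 8.86, 8.95 and 8.64 in LNCaP control, which overlapped (log2 0.01, interval -0.24 to 0.27, adjusted p = 0.933). The 22Rv1 overexpression arrays read 8.86, 8.74 and 8.70 against 8.40, 8.38 and 8.31 in 22Rv1 control. That 1.32-fold rise (log2 0.40, SE 0.12, adjusted p = 0.00980) was not called when arrays were centred on their 75th percentile (0.24, adjusted p = 0.113). The difference between the effects was not called (-0.39, interval -0.75 to -0.02, adjusted p = 0.0816), but was without LNCaP control replicate 3 (-0.47, adjusted p = 0.0475). Arrays labelled ONECUT2 shRNA read 8.27, 8.62 and 8.39, against 8.85, 9.12 and 8.89 on arrays labelled scramble, a 1.44-fold lower level (log2 -0.53, SE 0.12, adjusted p = 0.00408). The scramble arrays were themselves 1.504-fold above 22Rv1 control (log2 0.59, adjusted p = 0.00227), and the ONECUT2 shRNA arrays overlapped that control (log2 0.06, interval -0.20 to 0.32).

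CCNE1 encodes cyclin E1, an activator of CDK2. Its probe set 213523_at read 6.16, 6.03 and 6.30 in LNCaP overexpression against 6.51, 6.60 and 6.52 in LNCaP control. In 22Rv1 overexpression it read 5.65, 5.56 and 5.61 against 5.66, 5.75 and 5.55 in 22Rv1 control. CCNE1 fell 1.30-fold in LNCaP (log2 -0.38, SE 0.11, adjusted p = 0.00779), though the call was lost when only these 2 groups entered the fit (adjusted p = 0.0972). The 22Rv1 groups overlapped (log2 -0.05, interval -0.29 to 0.19, adjusted p = 0.721), and the difference between lines was not called (-0.33, interval -0.66 to 0.00, adjusted p = 0.105).

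On the hairpin arrays CCNE1 read 5.88, 6.06 and 6.07 under the ONECUT2 shRNA label, against 6.39, 6.39 and 6.21 under the scramble label. The difference was called at -0.32 (SE 0.11, adjusted p = 0.0401), but of the 6 fits without 1 array only in that without scramble replicate 3. Scramble exceeded 22Rv1 control 1.59-fold (log2 0.67, SE 0.11, adjusted p = 0.000381). LNCaP control exceeded 22Rv1 control 1.85-fold (log2 0.89, SE 0.11, adjusted p = 2.91e-06).

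CCNE2 encodes cyclin E2, a CDK2 activator and E2F target, and under overexpression it had the largest fall of these genes in both lines. Its probe set 205034_at read 7.55, 8.16 and 7.95 in LNCaP overexpression against 11.19, 11.12 and 11.13 in LNCaP control, and 8.94, 9.65 and 9.38 in 22Rv1 overexpression against 11.57, 11.49 and 11.68 in 22Rv1 control. Its probe set 211814_s_at read 3.84, 3.71 and 3.55 in LNCaP overexpression against 7.03, 7.03 and 6.61 in LNCaP control, and 4.404, 4.028 and 3.999 in 22Rv1 overexpression against 7.66, 7.29 and 7.66 in 22Rv1 control. All overexpression arrays lay far below all controls at both probe sets. The fall in LNCaP was 9.60-fold at 205034_at (log2 -3.26, SE 0.17, adjusted p = 7.71e-11) and at least 7.41-fold at 211814_s_at (adjusted p = 1.43e-10). In 22Rv1 it was 4.78-fold at 205034_at (log2 -2.26, SE 0.17, adjusted p = 1.02e-08) and a fitted 10.5-fold at 211814_s_at (log2 -3.39, SE 0.17, adjusted p = 1.49e-10). The 22Rv1 overexpression arrays lay near 4 at 211814_s_at, so this fitted size is not comparable with the LNCaP bound.

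Whether the fall differed between the lines could be read at 1 CCNE2 probe set only. At 205034_at the fall in LNCaP was deeper by 1.01 on the log2 scale (SE 0.24, adjusted p = 0.00282), and by 0.84 without LNCaP overexpression replicate 1. At 211814_s_at all LNCaP overexpression arrays were under 4, so the fall there has only a lower bound. The fitted difference between the lines at 211814_s_at was 0.20 (SE 0.24, adjusted p = 0.538). It was not called, and it sets no size for the difference. On arrays labelled ONECUT2 shRNA 211814_s_at read 7.28, 7.23 and 6.96, against 8.15, 8.14 and 8.57 on arrays labelled scramble, a 2.19-fold lower level (log2 -1.13, SE 0.17, adjusted p = 0.000149). At 205034_at they read 11.26, 11.47 and 11.56 against 11.82, 11.75 and 12.12, lower by 0.47 (adjusted p = 0.0477), a call lost in all 6 fits without 1 array. Here too the scramble arrays stood over 22Rv1 control, 1.69-fold at 211814_s_at (adjusted p = 0.00460).

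RB1 encodes the retinoblastoma protein, the pocket protein that holds E2F factors inactive. Its probe set 203132_at read 10.87, 10.10 and 9.98 in LNCaP overexpression, against 11.03, 10.99 and 11.04 in LNCaP control. The 22Rv1 overexpression arrays read 10.71, 10.93 and 10.81, against 10.92, 10.70 and 10.98 in 22Rv1 control. Replicate 1 of LNCaP overexpression lay just under the controls and the other 2 clearly below them. The fall in LNCaP was 1.63-fold (log2 -0.71, SE 0.20, adjusted p = 0.00613), and the log2 value was -0.98 without replicate 1 (adjusted p = 1.7e-05). The 22Rv1 groups overlapped (log2 -0.06, interval -0.48 to 0.37, adjusted p = 0.829). The difference between the lines was not called (-0.65, interval -1.25 to -0.05, adjusted p = 0.0755), but was without LNCaP overexpression replicate 1 (-0.93, adjusted p = 0.000915). Arrays labelled ONECUT2 shRNA read 10.54, 10.78 and 11.10, against 11.12, 11.03 and 11.62 on arrays labelled scramble, which overlapped (log2 -0.45, interval -0.87 to -0.03, adjusted p = 0.109).

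**Figure D3:**
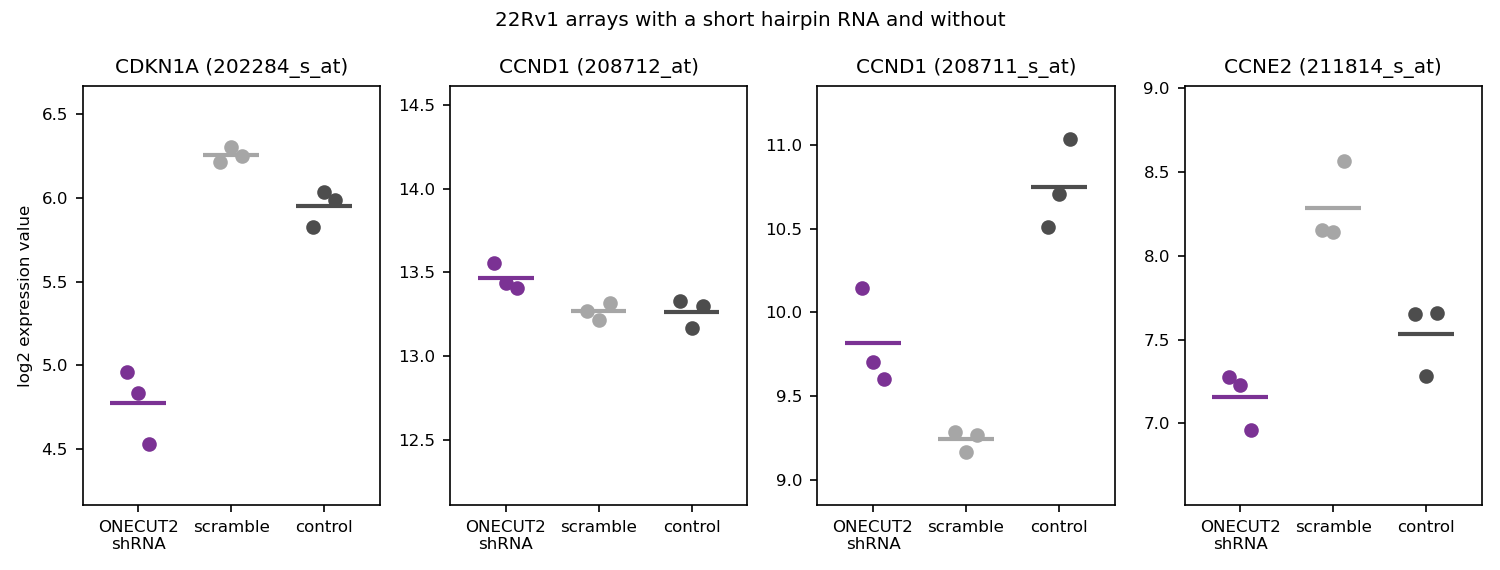
Log2 expression value (vertical axes, all of the same length) of CDKN1A, both CCND1 probe sets and 1 CCNE2 probe set on 22Rv1 arrays labelled ONECUT2 shRNA, scramble and control, with 1 point per array and a line at each group mean. CDKN1A is lowest under the ONECUT2 shRNA label, and the CCND1 probe sets order the 3 groups differently.

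The hairpin groups also allowed a look at the scramble arrays themselves. Scramble against 22Rv1 control had 4 of 13 probe sets called, 3 higher and 1 lower, with 22.1% of all probe sets called. Arrays labelled ONECUT2 shRNA against 22Rv1 control had 5 of 13 called, 2 higher and 3 lower, with 5.22% of all probe sets called. That count was 4 without ONECUT2 shRNA replicate 3, and 2 or 3 without any other single array of these groups. These comparisons and that of 22Rv1 overexpression share the 22Rv1 control arrays. CCND3, CCNE1 and CCNE2 at 211814_s_at were called higher in scramble than in control, and CCND1 at 208711_s_at lower. CDKN1A read 0.31 higher in scramble than in control (interval 0.01 to 0.60, adjusted p = 0.132), which was not called.

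LNCaP control against 22Rv1 control had 11 of 13 probe sets called, 3 higher and 8 lower, with 64.0% of all probe sets called. Higher in LNCaP were CDKN1A (2.28-fold, log2 1.19, SE 0.14, adjusted p = 1.3e-06), CCND3 (1.37-fold, adjusted p = 0.00389) and CCNE1. Lower in LNCaP were CDKN1B, CDKN1C at 213348_at, the 2 CCND1 and the 2 CCNE2 probe sets, of which CCNE2 at 205034_at (log2 -0.43, adjusted p = 0.0336) lost its call without any single array of these groups except 22Rv1 control replicate 2. The 8 lower calls also include CDKN1C at 213182_x_at, under 4 in both groups, and at 219534_x_at, under 4 in LNCaP control and at 3.81 to 4.03 in 22Rv1 control, for which no fold is given. RB1 was 0.15 apart (interval -0.27 to 0.58, adjusted p = 0.522) and CCND2 was under 4 in both.

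The orders of the group means differed from gene to gene. For CDKN1C the order was LNCaP overexpression and 22Rv1 overexpression, which overlapped, then ONECUT2 shRNA, 22Rv1 control, scramble and LNCaP control, none of which overlapped its neighbour. For CCND1 at 208712_at it was ONECUT2 shRNA, then scramble and 22Rv1 control, which overlapped, then 22Rv1 overexpression, LNCaP overexpression and LNCaP control, each apart. For CCNE2 at 205034_at it was scramble, 22Rv1 control and ONECUT2 shRNA, of which the last 2 overlapped, then LNCaP control, 22Rv1 overexpression and LNCaP overexpression. For CDKN1B the 4 groups of 22Rv1 lay above both LNCaP groups. For CCND3 and RB1 most neighbours overlapped.

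Among 12158 other genes past the filter, those whose values ran closest to each member over the 18 arrays were found by Pearson's r, a description in which the 18 arrays fall into 6 groups and share their normalization. CDKN1A ran closest to PHLDA3 (r = 0.985) and NMT2 (0.981). CCNE2 ran closest to RACGAP1 (0.993) and SKA1 (0.989), which act in cell division. CDKN1B ran closest to LPGAT1 (0.988) and NNT-AS1 (0.986), and CDKN1C to GON4L (0.978) and PSTPIP2 (0.971). CCND1 ran closest to SEC11A (0.982) and YBX2 (0.974), and CCND2 to ZPR1 (0.974) and HEXIM2 (0.969). RB1 had MDM1 (0.949) and TNNI3K (0.947) nearest. CCNE1 had ANXA9 (0.911) and ZBTB42 (0.893) nearest, and CCND3 had ZNF550 (0.875) and CSGALNACT1 (0.852), the loosest of the 9.

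Other genes of the same pathway were counted by list, at the probe set with the highest mean for each gene, beside the 59.0% and 58.1% of all probe sets called in LNCaP and 22Rv1 overexpression. Of 14 E2F target genes of S phase tested, 13 fell and none rose in LNCaP overexpression, and 14 fell in 22Rv1 overexpression, with medians of -3.47 and -1.96. Against LNCaP control the falls named by smallest p were CCNA2, cyclin A (log2 -4.78, adjusted p = 5.16e-16), and the replication helicase subunits MCM2 (-4.06) and MCM4 (-3.37). Against 22Rv1 control they were CCNA2 (-2.68, adjusted p = 3.74e-12), MCM2 (-2.66) and MCM7 (-2.75). Of 12 pocket proteins, E2F and DP factors, 11 fell and none rose in LNCaP, and 6 fell and 2 rose in 22Rv1. In LNCaP E2F8 fell by 5.73, TFDP1 by 1.30 and E2F2 by 1.96 on the log2 scale, and in 22Rv1 E2F2 fell by 2.80, E2F8 by 2.77 and E2F1 by 1.59. For comparison, the medians over all probe sets tested were 0.01 in LNCaP and 0.02 in 22Rv1.

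Of 7 G1 kinases and activating kinase subunits, 5 fell and 1 rose in LNCaP overexpression, and 4 fell and 2 rose in 22Rv1 overexpression. In LNCaP CDK2, the partner of the E cyclins, fell by 1.58, CDC25A, a phosphatase that activates it, by 2.97 and CDK4 by 0.75 on the log2 scale. In 22Rv1 CCNH, the cyclin of the activating kinase, fell by 1.73 and CDK4 by 0.65. CDK6, the other partner of the D cyclins, fell by 1.26 in LNCaP (SE 0.23, adjusted p = 0.000182) and rose by 1.26 in 22Rv1 (adjusted p = 0.000185), a difference between lines of -2.52 (adjusted p = 1.5e-05). Of 4 other CDK inhibitors, 2 rose and 1 fell in LNCaP, and 1 rose and 1 fell in 22Rv1. CDKN3, a phosphatase of CDK2 whose transcript is known to peak in dividing cells, fell by 4.35 in LNCaP and 2.76 in 22Rv1. CDKN2B, an INK4 inhibitor, rose by 2.53 in LNCaP and 1.08 in 22Rv1, and CDKN2D, another, rose by 1.29 in LNCaP.

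Of 8 ubiquitin ligase subunits that act in the turnover of these proteins, 3 rose and 3 fell in each line, with medians of -0.22 in LNCaP and -0.24 in 22Rv1. With most of the whole table called, nothing particular to this list or the next 2 is read from their counts. CKS1B fell by 3.73 in LNCaP and 1.83 in 22Rv1, and SKP2, which marks CDKN1B protein for degradation, fell by 2.03 in LNCaP. AMBRA1, which does so for D cyclins, rose by 1.49 in LNCaP and 1.03 in 22Rv1, and FBXO31 rose by 1.4996 in 22Rv1. Of 6 MuvB and DREAM subunits, 3 fell and 2 rose in LNCaP, and 3 fell and 1 rose in 22Rv1. MYBL2 was at least 4.14-fold lower in LNCaP and at least 2.84-fold lower in 22Rv1 overexpression, LIN9 fell by 2.64 and 2.00 in the same order, and LIN37 rose by 1.40 and 1.86. Of 7 transcription factors known to act on these genes, 3 rose and 1 fell in each line. MYC fell by 2.77 in LNCaP, where SMAD3 rose by 0.71 and FOXO1 by 0.54, and in 22Rv1 FOXO1 rose by 1.89, SMAD3 by 1.20 and FOXO3 by 0.68.

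**Figure D4:**
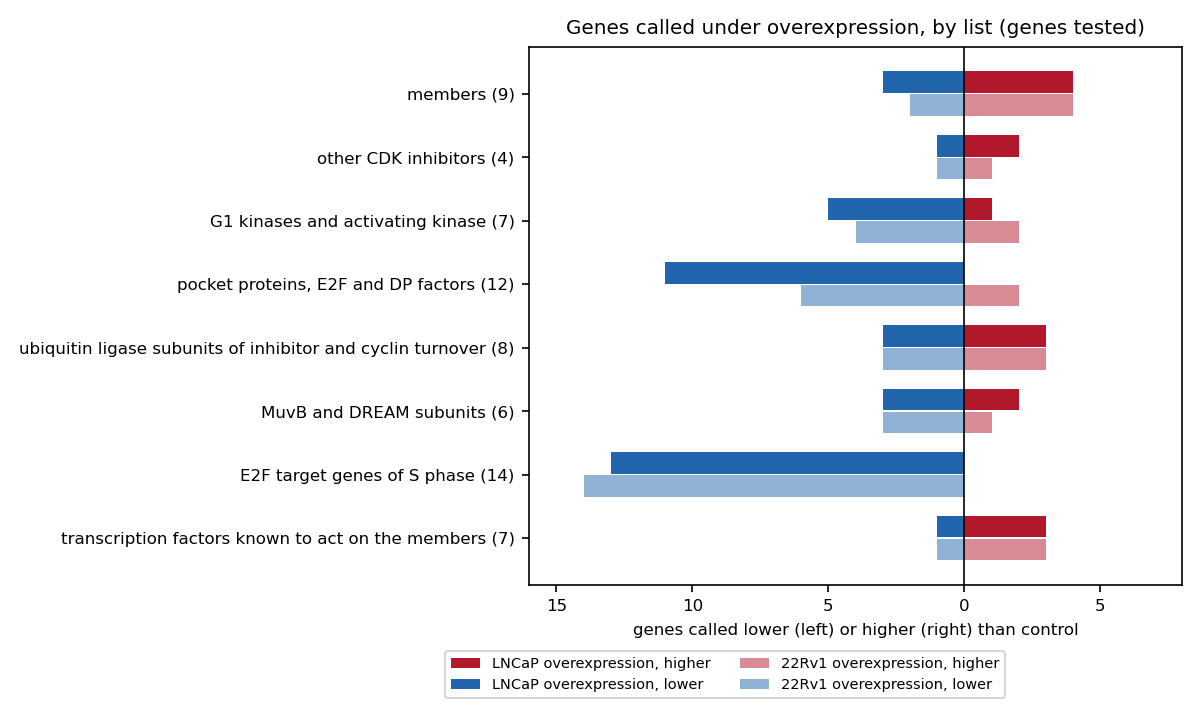
Number of genes called lower (bars to the left) or higher (bars to the right) than the control of the same line under ONECUT2 overexpression, for the genes described here (members) and 7 other lists, with the number of genes tested in brackets; dark bars are LNCaP and pale bars 22Rv1. The E2F target genes were called lower in 13 of 14 cases in LNCaP and 14 of 14 in 22Rv1.

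On arrays labelled ONECUT2 shRNA most lists held fewer calls against scramble than in either overexpression comparison, as did the whole table, with 27.0% called. The 7 transcription factors held as many, 2 higher and 2 lower. Of the 14 E2F targets 4 were higher and none lower, of the 12 pocket proteins, E2F and DP factors 3 were higher and 1 lower, and of the 7 kinases and subunits only CDK6 was called, higher by 1.77 (adjusted p = 3.17e-05). The other CDK inhibitors had 2 of 4 lower, CDKN2B by 0.98 and CDKN2D by 1.09 on the log2 scale, as many calls as in 22Rv1 overexpression. Of the 6 MuvB and DREAM subunits 2 were higher and 1 lower, and of the 8 ubiquitin ligase subunits 1 was lower. These directions, like those of the 9 genes above, follow the array labels, under which ONECUT2 itself was higher.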

How the data were processed

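Total RNA of 18 samples was labelled with biotin by a 3' in vitro transcription kit and hybridised to Affymetrix Human U133 Plus 2.0 arrays, per the labels' protocols. The deposited values are log2 expression values per probe set, made by the authors with GCRMA per the submitters' processing notes. GCRMA corrects background by probe sequence, normalizes quantiles and summarizes probe sets. The version of GCRMA is not given in the sources used here, nor is whether 1 run covered all 18 arrays. Groups came from the labels. Probe sets were named through the platform gene table supplied: 41097 had 1 symbol, 1801 several and 11777 none, 62 of them controls. Names were updated through gene identifiers for 41043.

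Probe sets with 1 symbol and a log2 value over 4 on at least 3 arrays (21233) were fitted with limma 3.58.1 (R 4.3.3). The model had a mean for each of 6 groups, 12 residual degrees of freedom, and empirical Bayes moderation with trend and robust options. The p-values were adjusted by Benjamini-Hochberg within each of 7 comparisons, and an adjusted p under 0.05 was called. The model was also run on simulated data in which few probe sets changed, in LNCaP overexpression only. In these data most probe sets were called in overexpression, so that run does not give their error rate. A change from or to a group with no array over 4 is given as a bound, with 4 in place of that group's values, except in differences between lines and in fits without 1 array. The 18 arrays limit the precision. Where 1 value stands for a gene, it is the probe set with the highest mean. Other genes were named by list: up to 3 called per list and overexpression comparison by smallest p, and for each member the 2 with the highest r. CDK6, RBL2 and E2F6 are also given where their difference between lines was called. The members and lists were chosen with earlier results of these data known. Alternatives covered centring, the filter, 1 probe set per gene, moderation, array weights, the groups fitted, the replicate number as a block and leaving out each array. Promoter windows are from RefSeq tables on GRCh38.p14, and no other sequence was used.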

Additional observations from a re-analysis of the deposited data

Results flagged for a closer look

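These results stand out because the effect of overexpression in LNCaP minus that in 22Rv1 was called in the model's own test of that difference. On the log2 scale it was 2.85 for CDKN1A (SE 0.20, adjusted p = 1.9e-08), from effects of 3.44 in LNCaP and 0.59 in 22Rv1, so both lines rose and LNCaP by more. For CDKN1C it was 2.32 at 213348_at (adjusted p = 1.7e-06), 1.74 at 219534_x_at (adjusted p = 2.91e-05) and 1.06 at 213182_x_at (adjusted p = 0.00981), or 1.63 and 0.79 without LNCaP overexpression replicate 1. These last 2 differences rest on controls near or under 4. Taken from 4, the rise at 219534_x_at was at least 1.64 in LNCaP, against a fitted 1.35 in 22Rv1, and at 213182_x_at at least 0.97 in LNCaP and at least 0.64 in 22Rv1, which sets no size for the difference. CCND1 moved in opposite directions at 208712_at, with a difference of 1.71 (adjusted p = 6.62e-09), and at 208711_s_at the difference was 1.40 (adjusted p = 0.000148), with a fall in 22Rv1 and no called change in LNCaP. CCND2 differed by 1.15 (SE 0.38, adjusted p = 0.0219), with both controls under 4, so that this fitted value is no measured size, and the call was lost when only the groups compared were fitted (adjusted p = 0.0596). CCNE2 fell in both lines, by 1.01 more in LNCaP at 205034_at (difference -1.01, adjusted p = 0.00282). At its probe set 211814_s_at the fitted difference of 0.20 was not called (adjusted p = 0.538), with all LNCaP overexpression arrays under 4.

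Among the other pathway genes that moved in opposite directions in the lines, CDK6 had a difference of -2.52 (SE 0.32, adjusted p = 1.5e-05). RBL2, a pocket protein related to RB1, had -1.15 (SE 0.15, adjusted p = 2.01e-05), with effects of -0.70 in LNCaP and 0.45 in 22Rv1. E2F6, a repressive E2F factor, had -1.37 (SE 0.18, adjusted p = 1.69e-05), with effects of -0.59 in LNCaP and 0.78 in 22Rv1. The causes of these differences were not tested.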

How the results depend on the processing

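No call on a member changed direction under any alternative in which both fits gave a value. Of 618 fits of a member without 1 array, 578 kept their side of the threshold, 36 lost a call and 4 gained one, and the report names the arrays concerned. Centring on array medians kept 90 of 91 calls and non-calls, centring on the 75th percentile 79 of 84, no filter 87 of 91, a filter at 6 all 70, plain moderation 88 of 91, array weights 79 of 91 with 12 gained, and fitting only the groups compared 80 of 91. Centring on the 75th percentile changed the share of calls that were higher to 40.5% in 22Rv1 overexpression, against 53.6% as deposited, with median changes of -0.14 and 0.02, and for the difference between lines to 60.0% against 41.95%, with medians of 0.12 and -0.09.

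With a filter at 6, the members called in the difference between lines numbered 5, since dim probe sets were no longer tested. The share called over all probe sets at that filter is not given here, so nothing is read from that count. With 1 probe set per gene fewer features were tested, namely 9 members, with 12158 genes beside each of them. The calls over all genes numbered 7557 in LNCaP overexpression, 7393 in 22Rv1 overexpression and 3592 for shRNA against scramble. They were 5434 for the difference between lines and 2659 for scramble against control. For shRNA against control they were 542, and for LNCaP control against 22Rv1 control 7737. Of the 9 members, those called were then 6 in 22Rv1 overexpression, 5 for shRNA against scramble and 5 for the difference between lines. For scramble against control they were 2, for shRNA against control 3 and for the control lines 7. Array weights gave 9859 calls for shRNA against scramble, 9323 and 9 members for scramble against control, and 4606 and 8 members for shRNA against control. Fitting only the groups compared gave 7396 calls and 9 members for scramble against control, and 3118 calls for shRNA against control. Without 1 array the calls for shRNA against control ranged from 396, without ONECUT2 shRNA replicate 2, to 1155, and the members from 2 to 4.

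Same-numbered deviations correlated at -0.14 to 0.40, with no comparison over 0.1 in all 3. For LNCaP overexpression against control, and LNCaP control against 22Rv1 control, each array deviated most like its same-numbered one, at r of 0.02 to 0.12. In the other comparisons this did not hold for all 3. Whether the replicate numbers pair the arrays was not settled. A replicate block left calls among the 13 member probe sets at 10 in LNCaP overexpression, 10 in 22Rv1 overexpression and 9 for shRNA against scramble. They were 8 for the difference between lines, and 4, 5 and 11 in the remaining 3 comparisons. Over all 21233 probe sets the calls were 12487, 12266, 5598, 8816, 4520, 1055 and 13513 in the same order. The block moved 1 member call each way, CCND1 at 208712_at gained (adjusted p = 0.0225) and CCNE1 lost (adjusted p = 0.0594), both for shRNA against scramble.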
